A study of Homo sapiens with 15 samples.

Results

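The sites described here are the open-chromatin peaks around TAL1, LMO2 and LDB1 in K562, a human erythroleukemia cell line, in 15 libraries. A peak was a member when it overlapped 1 of 3 windows on the human genome build hg19: chr1:47630000-47720000 around TAL1, chr11:33860000-33980000 around LMO2, or chr10:103860000-103890000 around LDB1. This gave 472 of 1070377 deposited peaks. Merged wherever they shared at least 1 bp, they formed 46 of the 120992 regions on the autosomes and X, with 18 at TAL1, 22 at LMO2 and 6 at LDB1. The members were chosen by position, not by their values.

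All cells carried a lentivirus with puromycin resistance that stably expressed dCas9, a Cas9 that binds DNA without cutting it, or dCas9-KRAB, in which dCas9 is fused to the KRAB repressor domain. The groups were dCas9-KRAB with gRNA Cr4, dCas9-KRAB with gRNA Cr10, dCas9 with Cr4, dCas9 with Cr10, and dCas9-KRAB without a gRNA, with 3 libraries each. Cr4 and Cr10 are guide RNAs aimed at HS2, an enhancer of the beta-globin locus, so neither was directed at the genes described here. No group held dCas9 without a gRNA or cells that were not transduced, so the comparisons of dCas9 with the group without a gRNA change the KRAB domain and the gRNA at once. The target label read HS2 even for the cells that had no gRNA, and the groups followed the titles. Transduction was in triplicate per the series text; nothing else says that the libraries came from separate cultures, so the spread behind every p-value here may be technical only. In such bulk samples, fewer cells with an open site and less opening per cell cannot be told apart.

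TAL1 is a basic helix-loop-helix transcription factor that binds E-box DNA together with E proteins. LMO2 is a LIM-only protein that binds no DNA itself and bridges TAL1 to GATA1 and to LDB1. LDB1 dimerises, which lets the assembled complex hold distant enhancers and promoters together, and in erythroid cells this complex occupies the beta-globin locus control region. TAL1 and LMO2 are also known as genes activated by rearrangement in T-cell leukemia.

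The gene starts with a RefSeq promoter sequence are shown because the gene products act through GATA and E-box motifs. The sequences are from RefSeq on GRCh38.p14, not on hg19, and were not placed under the peaks by coordinate. Which of the 4 LDB1 promoter regions described below holds the LDB1 sequence was thus not determined, and it need not be the main one. TAL1 had 2 starts in the table, 620 bases apart, at chr1:47232286-47232585 and chr1:47231666-47231965, and LDB1 had 1, at chr10:102114953-102115252. All are on the minus strand, run from 250 bases before the start to 50 after it, and are written 5′ to 3′. Capitals mark every match to GATAA or its reverse TTATC, to CANNTG, the E-box, and to GGGCGG or its reverse CCGCCC, the GC box.
TAL1 start 1: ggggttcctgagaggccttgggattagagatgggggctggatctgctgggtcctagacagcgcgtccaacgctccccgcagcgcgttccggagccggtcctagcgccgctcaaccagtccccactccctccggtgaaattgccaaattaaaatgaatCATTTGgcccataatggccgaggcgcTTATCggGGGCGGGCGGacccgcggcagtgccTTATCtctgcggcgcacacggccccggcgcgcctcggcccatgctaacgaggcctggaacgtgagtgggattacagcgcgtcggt
TAL1 start 2: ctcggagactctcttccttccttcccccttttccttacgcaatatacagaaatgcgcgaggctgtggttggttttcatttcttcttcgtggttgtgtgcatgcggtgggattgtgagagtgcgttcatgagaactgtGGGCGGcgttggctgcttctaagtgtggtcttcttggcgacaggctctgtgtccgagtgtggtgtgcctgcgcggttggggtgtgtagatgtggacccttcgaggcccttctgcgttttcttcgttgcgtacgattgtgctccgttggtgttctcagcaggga
LDB1: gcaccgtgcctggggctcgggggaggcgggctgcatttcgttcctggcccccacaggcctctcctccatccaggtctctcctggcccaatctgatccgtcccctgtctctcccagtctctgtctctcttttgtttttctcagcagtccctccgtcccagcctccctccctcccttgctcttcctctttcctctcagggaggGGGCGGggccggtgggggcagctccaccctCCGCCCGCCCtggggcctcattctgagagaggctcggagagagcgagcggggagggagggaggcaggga

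The TAL1 sequence at start 1 held 2 GATAA matches, both as TTATC, whose first letters stood at positions -67 and -35 from the start. It also held 1 E-box, CATTTG at position -93, and 2 GC boxes at positions -60 and -56 that overlapped each other. The sequence at start 2 held 0 GATAA matches, 0 E-boxes and 1 GC box, and that of LDB1 held 0, 0 and 3. CAGATG, the E-box that TAL1 complexes are known to prefer, was in none of the 3 sequences on either strand. Among 34796 RefSeq promoters of 300 bases, 22.8% held GATAA, 68.7% CANNTG, 14.7% CAGATG and 44.9% GGGCGG on either strand. The GC content was 64.3% and 54.3% at the TAL1 starts and 67.0% at LDB1, beside a median of 58.7% over those promoters.

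The deposited lists held from 53147 to 94777 peaks, and the median fragment pileup at summits shared by all lists ran from 44 to 115. Strength was therefore compared as a rank, which need not be free of the depth of a library. In each list the 53098 strongest peaks on the autosomes and X by fold enrichment over the local background were kept, as many as the shortest list had on those chromosomes, and a region's value was its percentile in that order, with 100 for the strongest peak and 0 stands for no kept peak. The erythroid genes GATA1, KLF1, HBG1 and HBG2 each had a peak within 1000 bases of the start in 15 of 15 deposited lists. They were not equally strong. KLF1 had 3 such regions and GATA1 had 2, and the values given are those of 1 region per gene. That KLF1 region was in only 1 shortened list, with a median percentile of 0, and that of GATA1 in 13, with 14.8. The medians were 49.6 for HBG1 and 54.9 for HBG2. CD3E, a T-cell gene, had a peak in 1 deposited list, and PAX5, a B-cell gene, and ALB, a liver gene, in 0. These starts, like those of the 3 genes themselves, are recalled hg19 positions that were not checked against an annotation.

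Of the 46 regions, 21 (45.7%) had a peak in all 15 deposited lists, of which 7 lay at TAL1, 10 at LMO2 and 4 at LDB1. Over the whole genome 32.1% of regions did. Of the other members, 17 had a peak in 2 to 14 lists and 8 in a single list. In the shortened lists 28 members had a peak, of which 12 (42.9%) had one in all 15 libraries, beside 43.4% of all regions. At equal list length the members' share was thus not above that of all regions. A peak in at least 3 shortened lists, needed for a test, was found for 22. By position, 11 regions lay within 1000 bases of a start of the window's gene, 2 at TAL1, 5 at LMO2 and 4 at LDB1, and 35 were distal. The strongest site at LMO2 and at LDB1, and also at TAL1, was distal, as the map of sites by position shows.

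**Figure D1:**
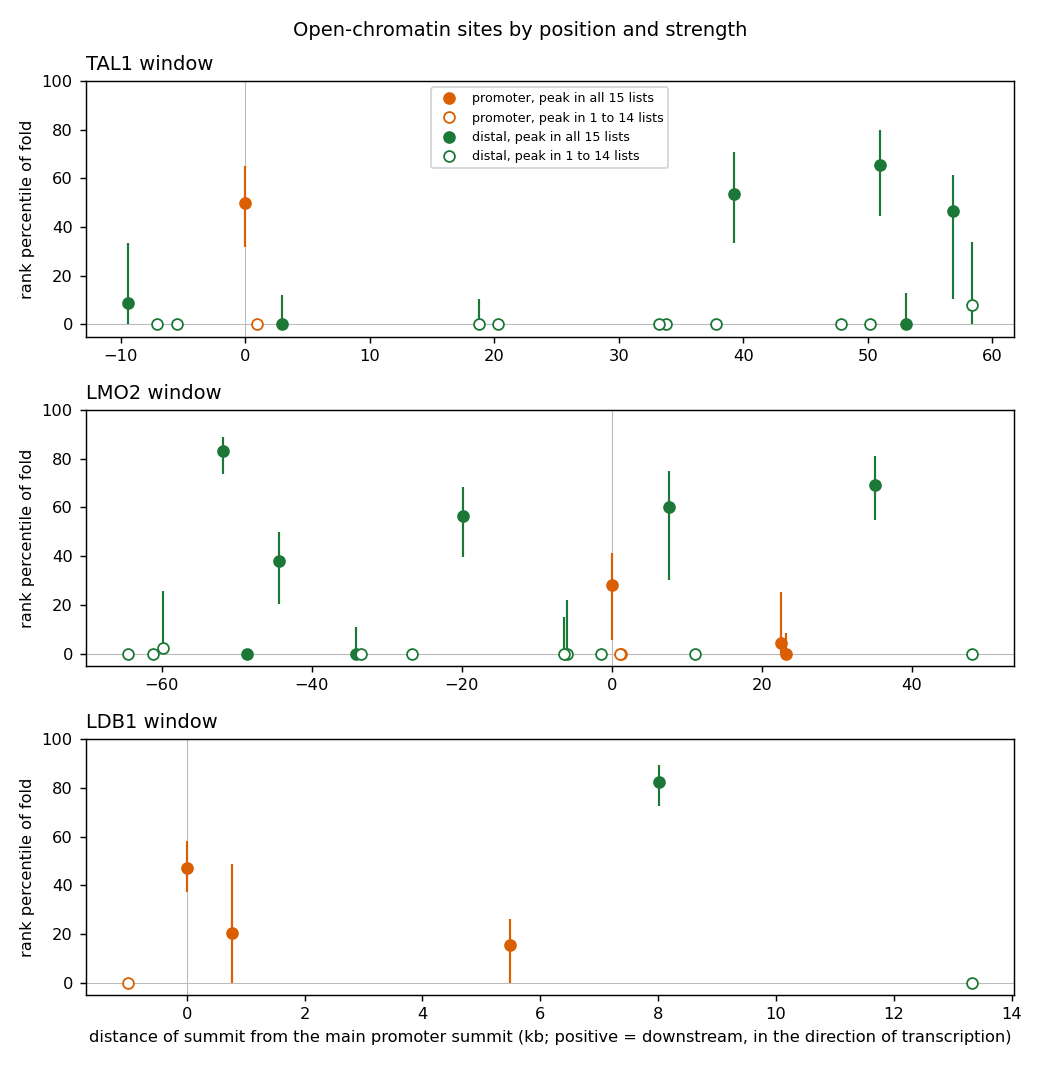
Rank percentile of fold (y axis, 0 to 100) of all 46 regions against the distance of their summit from the main promoter summit of the gene (x axis, kb, positive downstream in the direction of transcription). Points are medians over 15 libraries and lines the lowest to highest library; the highest medians are 65.3 at TAL1, 83.4 at LMO2 and 82.4 at LDB1, and each of these sites is distal.

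At TAL1 the main promoter region, chr1:47697473-47698301, had a median percentile of 49.7. Its summit hardly moved between libraries, with a median position of 47697997 and an SD of 4.02 bp (n = 15). The percentiles were 58.8, 49.7 and 38.3 for dCas9-KRAB plus Cr4, and 59.4, 49.5 and 60.9 for dCas9-KRAB plus Cr10. They were 57.3, 45.8 and 39.9 for dCas9 plus Cr4, 54.4, 47.8 and 31.8 for dCas9 plus Cr10, and 59.4, 39.0 and 65.1 with dCas9-KRAB without a gRNA. The lowest value and the highest came from dCas9 with Cr10 and from the group without a gRNA, and the ranges of all 5 groups overlapped. In every group but dCas9-KRAB plus Cr10, the lowest library was also the longest list of its group. Those lists held 88822, 86931, 94777 and 88368 peaks, in the order above. The lists of dCas9-KRAB plus Cr10 held at most 70093. At the LMO2 and LDB1 main promoters not all of those groups showed this. Whether list length or depth lies behind it was not tested. A second, weak promoter region, chr1:47696881-47697441, lay 0.943 kb downstream and had a peak in 14 lists, all but replicate 1 of dCas9-KRAB with Cr10. Its fold was 2.77, 3.12 and 3.05 for dCas9-KRAB plus Cr4, 3.31 and 3.32 in the libraries of dCas9-KRAB plus Cr10 that had a peak, and 2.83, 3.41 and 3.32 for dCas9 plus Cr4. For dCas9 plus Cr10 it was 3.28, 3.62 and 3.01, and with dCas9-KRAB without a gRNA 3.47, 3.02 and 3.38. This fold was computed by the authors for each peak and serves as a description only, since no normalization between libraries is recorded.

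The strongest TAL1 site lay 51.0 kb downstream of the main promoter summit, at chr1:47646697-47647435, with a median percentile of 65.3. An erythroid enhancer of TAL1 is known in humans far downstream of the gene, beyond its neighbour PDZK1IP1; whether this site is that element was not tested. Its percentile was 60.8, 65.3 and 46.5 for dCas9-KRAB plus Cr4, 68.3, 66.3 and 68.2 for dCas9-KRAB plus Cr10, and 52.5, 66.6 and 52.6 for dCas9 plus Cr4. It was 80.0, 59.0 and 44.5 for dCas9 plus Cr10, and 67.1, 50.4 and 66.96 with dCas9-KRAB without a gRNA. Libraries of dCas9 with Cr10 held both the highest and the lowest of these values, while the 3 for dCas9-KRAB plus Cr10 lay within a few points of each other. The 80.0 came from the shortest list of all (53147 peaks) and the 44.5 from the longest (94777). The lists of dCas9-KRAB plus Cr10 held 60522 to 70093 peaks. The part of list length in this spread was not tested.

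Other TAL1 sites downstream formed a group around this one. The site at chr1:47658280-47659055, 39.3 kb downstream, stood at 55.9, 33.6 and 43.5 for dCas9-KRAB plus Cr4, 64.2, 48.0 and 55.2 for dCas9-KRAB plus Cr10, 53.6, 55.8 and 38.3 for dCas9 plus Cr4, 61.7, 52.8 and 35.1 for dCas9 plus Cr10, and 42.9, 55.5 and 70.7 without a gRNA. The site at chr1:47641007-47641344, 56.8 kb downstream, stood at 59.9, 52.2 and 10.6 for dCas9-KRAB plus Cr4, 57.3, 35.5 and 46.5 for dCas9-KRAB plus Cr10, 58.7, 25.4 and 37.4 for dCas9 plus Cr4, 55.1, 20.9 and 37.4 for dCas9 plus Cr10, and 61.3, 30.9 and 50.9 without a gRNA. At that site the spread within each of the 5 groups was wider than the distance between any group means. The weaker site at chr1:47644778-47645162, 53.0 kb downstream, was in all 15 deposited lists but in 5 of the shortened ones. Its fold was 4.45, 4.37 and 4.40 for dCas9-KRAB plus Cr4, 3.71, 4.59 and 4.47 for dCas9-KRAB plus Cr10, 4.48, 4.72 and 4.56 for dCas9 plus Cr4, 4.24, 5.08 and 4.13 for dCas9 plus Cr10, and 3.70, 4.00 and 4.81 without a gRNA.

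Nearer the gene, the site 2.95 kb downstream at chr1:47694703-47695434 had a fold of 3.32, 3.88 and 3.59 for dCas9-KRAB plus Cr4, 3.17, 4.57 and 2.71 for dCas9-KRAB plus Cr10, 3.56, 3.58 and 3.30 for dCas9 plus Cr4, 4.66, 3.78 and 4.11 for dCas9 plus Cr10, and 4.27, 3.97 and 3.38 without a gRNA. It was in all 15 deposited lists and in 1 shortened list. Upstream, the site at chr1:47707205-47707850, 9.44 kb from the promoter summit, was the TAL1 site with the widest range of group means. Its percentile was 10.6, 0 and 5.52 for dCas9-KRAB plus Cr4, 22.9, 31.1 and 0 for dCas9-KRAB plus Cr10, 2.50, 6.46 and 0 for dCas9 plus Cr4, 8.79, 0 and 15.6 for dCas9 plus Cr10, and 33.4, 8.87 and 33.1 without a gRNA. Each library had a peak there in its deposited list, with a fold from 3.59 to 6.67, so a 0 stands for a peak outside the strongest 53098. The other 10 distal TAL1 regions had a peak in 1 to 14 lists.

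TAL1 stood higher by the number of fragments than by fold. The fold and p-value columns together fix the whole number of fragments at each summit, here called the summit pileup, and the local background. The background at the main promoter had a median of 21.6 fragments and that at the site 51.0 kb downstream 22.3, beside a median of 7.36 over the 38888 regions found in every list. It was lower at 98.1% and 98.4% of those regions. At the sites 53.0 kb and 2.95 kb downstream it was 22.5 and 23.4 fragments. At the LMO2 and LDB1 main promoters it was 9.70 and 10.3. The summit pileup had a median of 178 fragments at the TAL1 promoter and of 215 at the site 51.0 kb downstream. These were higher than at 94.8% and 99.0% of those regions. The pileup was 68 at the LMO2 main promoter and 81 at that of LDB1. High values were not limited to TAL1. At the LMO2 site 51.8 kb upstream the pileup was 173 and the background 14.6, higher than at 93.8% and 89.9% of those regions. At the TAL1 site 9.44 kb upstream the pileup was 45, higher than at 21.0%.

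At LMO2, which is transcribed from more than 1 promoter, the main promoter region was chr11:33914360-33914904. It lay within 1000 bases of the start farthest upstream, not necessarily over it, and had a median percentile of 28.3. It stood at 27.9, 37.3 and 28.3 for dCas9-KRAB plus Cr4, 5.40, 19.8 and 26.0 for dCas9-KRAB plus Cr10, and 38.5, 41.2 and 20.5 for dCas9 plus Cr4. For dCas9 plus Cr10 it stood at 37.9, 38.9 and 15.3, and with dCas9-KRAB without a gRNA at 37.8, 25.7 and 32.9. All 3 libraries of dCas9-KRAB with Cr10 lay below all 3 of dCas9-KRAB with Cr4, a separation found in either direction at 5.81% of all regions. They overlapped the range without a gRNA by 1 library, the one at 26.0. Its summit was less sharp than that of TAL1, with an SD of 43.1 bp (n = 15).

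The promoter nearer the LMO2 coding region had 2 weaker regions. The site at chr11:33891940-33892538, 22.5 kb downstream of the main summit, stood at 0, 9.21 and 0 for dCas9-KRAB plus Cr4, 14.4, 16.6 and 4.37 for dCas9-KRAB plus Cr10, 25.1, 0 and 7.98 for dCas9 plus Cr4, 20.1, 6.92 and 0 for dCas9 plus Cr10, and 0 in all 3 libraries without a gRNA. Each deposited list still held a peak there, with a fold from 3.87 to 5.51, so the zeros are weak peaks and not missing ones. The neighbouring site at chr11:33890582-33891885 had a fold of 4.52, 4.18 and 3.82 for dCas9-KRAB plus Cr4, 4.09, 4.08 and 3.52 for dCas9-KRAB plus Cr10, 4.13, 4.09 and 3.80 for dCas9 plus Cr4, 3.93, 4.86 and 3.79 for dCas9 plus Cr10, and 4.00, 3.88 and 3.64 without a gRNA. It was the broadest member, with a median width of 942 bp. Close to the main region, chr11:33913529-33913785 was also within 1000 bases of a start and had a peak in 5 lists, 1 in each group. Its fold was 2.95 for dCas9-KRAB plus Cr4, 4.27 for dCas9-KRAB plus Cr10 and 3.59 for dCas9 plus Cr4. It was 4.06 for dCas9 plus Cr10 and 3.45 without a gRNA. The region chr11:33913297-33913499 had a peak in 1 list, replicate 3 of dCas9 with Cr10, with a fold of 2.43.

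The strongest of all members was an LMO2 site 51.8 kb upstream of the main promoter summit, chr11:33966205-33966768, with a median percentile of 83.4 and a summit SD of 6.44 bp (n = 15). It lay 74.3 kb upstream of the summit at the promoter nearer the coding region. Enhancers that act on LMO2 in blood cells are known far upstream of the gene; whether this site is one of them was not tested. It stood at 83.4, 84.3 and 76.2 for dCas9-KRAB plus Cr4, 88.3, 84.2 and 81.4 for dCas9-KRAB plus Cr10, 80.8, 82.5 and 83.8 for dCas9 plus Cr4, 84.9, 82.1 and 73.7 for dCas9 plus Cr10, and 83.8, 78.5 and 89.1 without a gRNA. The 15 libraries thus stayed within the range from 73.7 to 89.1, and the groups overlapped.

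Further LMO2 sites of high rank lay on both sides of the main promoter. Downstream, chr11:33879433-33879779 at 35.1 kb stood at 60.8, 71.8 and 65.5 for dCas9-KRAB plus Cr4, 70.3, 73.1 and 69.7 for dCas9-KRAB plus Cr10, 54.7, 60.8 and 73.1 for dCas9 plus Cr4, 77.0, 66.6 and 69.4 for dCas9 plus Cr10, and 64.5, 60.6 and 81.0 without a gRNA. The site chr11:33906772-33907286 at 7.62 kb stood at 49.2, 68.9 and 72.0 for dCas9-KRAB plus Cr4, 45.4, 60.0 and 66.2 for dCas9-KRAB plus Cr10, 30.1, 52.3 and 60.2 for dCas9 plus Cr4, 68.6, 74.9 and 58.0 for dCas9 plus Cr10, and 53.0, 50.1 and 67.5 without a gRNA. The lowest value of that site, 30.1, came from replicate 1 of dCas9 with Cr4.

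Upstream, chr11:33933874-33934682 at 19.8 kb stood at 53.3, 67.1 and 50.5 for dCas9-KRAB plus Cr4, 52.4, 50.4 and 66.8 for dCas9-KRAB plus Cr10, 57.4, 63.6 and 68.6 for dCas9 plus Cr4, 64.7, 56.5 and 56.8 for dCas9 plus Cr10, and 39.6, 54.5 and 53.7 without a gRNA. The 6 libraries with dCas9 and a gRNA all ranked above the 3 libraries without a gRNA there. Against no gRNA, groups did not overlap at 3.64% of all regions for dCas9 plus Cr4 and at 5.07% for dCas9 plus Cr10. The share for both at once was not counted. The site chr11:33958511-33959265 at 44.3 kb stood at 36.8, 20.4 and 37.4 for dCas9-KRAB plus Cr4, 34.5, 45.1 and 39.7 for dCas9-KRAB plus Cr10, 42.4, 37.98 and 27.9 for dCas9 plus Cr4, 50.04, 46.8 and 22.2 for dCas9 plus Cr10, and 40.2, 25.5 and 48.5 without a gRNA. Its groups overlapped throughout. A faint site at chr11:33948475-33949044, 34.2 kb upstream, had a fold of 3.45, 4.27 and 3.69 for dCas9-KRAB plus Cr4, 2.998, 4.33 and 4.01 for dCas9-KRAB plus Cr10, 4.85, 4.70 and 3.77 for dCas9 plus Cr4, 4.12, 3.77 and 4.23 for dCas9 plus Cr10, and 4.37, 4.85 and 3.59 without a gRNA. Of the other 11 distal LMO2 regions, 1 (chr11:33963153-33963624) was in all 15 deposited lists, with a fold from 3.48 to 4.51, and 10 were in 1 to 14.

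At LDB1 the main promoter region was chr10:103879891-103880755, with a median percentile of 47.2. It stood at 43.5, 39.9 and 43.5 for dCas9-KRAB plus Cr4, 54.99, 57.1 and 50.2 for dCas9-KRAB plus Cr10, and 47.5, 47.2 and 37.1 for dCas9 plus Cr4. For dCas9 plus Cr10 it stood at 55.2, 58.2 and 44.6, and with dCas9-KRAB without a gRNA at 51.3, 45.8 and 41.0. The 3 libraries of dCas9-KRAB with Cr4 lay below the 3 of dCas9-KRAB with Cr10, while both overlapped the group without a gRNA. A separation of Cr4 from Cr10 within dCas9-KRAB was found in either direction at 5.81% of all regions. A second region, chr10:103879183-103879725, lay 0.776 kb downstream. It was erratic, at 34.9, 37.6 and 3.90 for dCas9-KRAB plus Cr4, 28.2, 8.66 and 18.9 for dCas9-KRAB plus Cr10, 35.2, 10.2 and 27.2 for dCas9 plus Cr4, 20.5, 9.04 and 2.61 for dCas9 plus Cr10, and 31.6, 0 and 48.6 without a gRNA. Both its lowest and its highest value came from the group without a gRNA.

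The third LDB1 promoter region, chr10:103874626-103874952 at a start 5.49 kb downstream, stood at 0, 15.9 and 17.5 for dCas9-KRAB plus Cr4, 26.3, 24.1 and 17.2 for dCas9-KRAB plus Cr10, 13.3, 0 and 11.6 for dCas9 plus Cr4, 13.9, 16.0 and 15.5 for dCas9 plus Cr10, and 16.7, 15.1 and 4.22 without a gRNA. The dCas9-KRAB with Cr10 libraries were above all libraries of dCas9 with Cr10 and above those without a gRNA. Such groups did not overlap at 4.67% and at 5.40% of all regions. The groups of dCas9-KRAB with Cr4 and with Cr10 overlapped, as the highest with Cr4 was 17.5 and the lowest with Cr10 was 17.2. The fourth, chr10:103881173-103881389, had a peak in 1 list, replicate 3 of dCas9 with Cr10, with a fold of 3.10. The strongest LDB1 site was distal, 8.01 kb downstream of the main summit at chr10:103872046-103872523, with a median percentile of 82.4. Its percentiles were 86.6, 84.1 and 78.6 for dCas9-KRAB plus Cr4, 84.2, 77.1 and 80.3 for dCas9-KRAB plus Cr10, 72.4, 84.9 and 84.1 for dCas9 plus Cr4, 87.4, 75.3 and 73.8 for dCas9 plus Cr10, and 79.4, 82.4 and 89.4 without a gRNA. All groups overlapped there. The other distal LDB1 region was in 1 list.

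**Figure D2:**
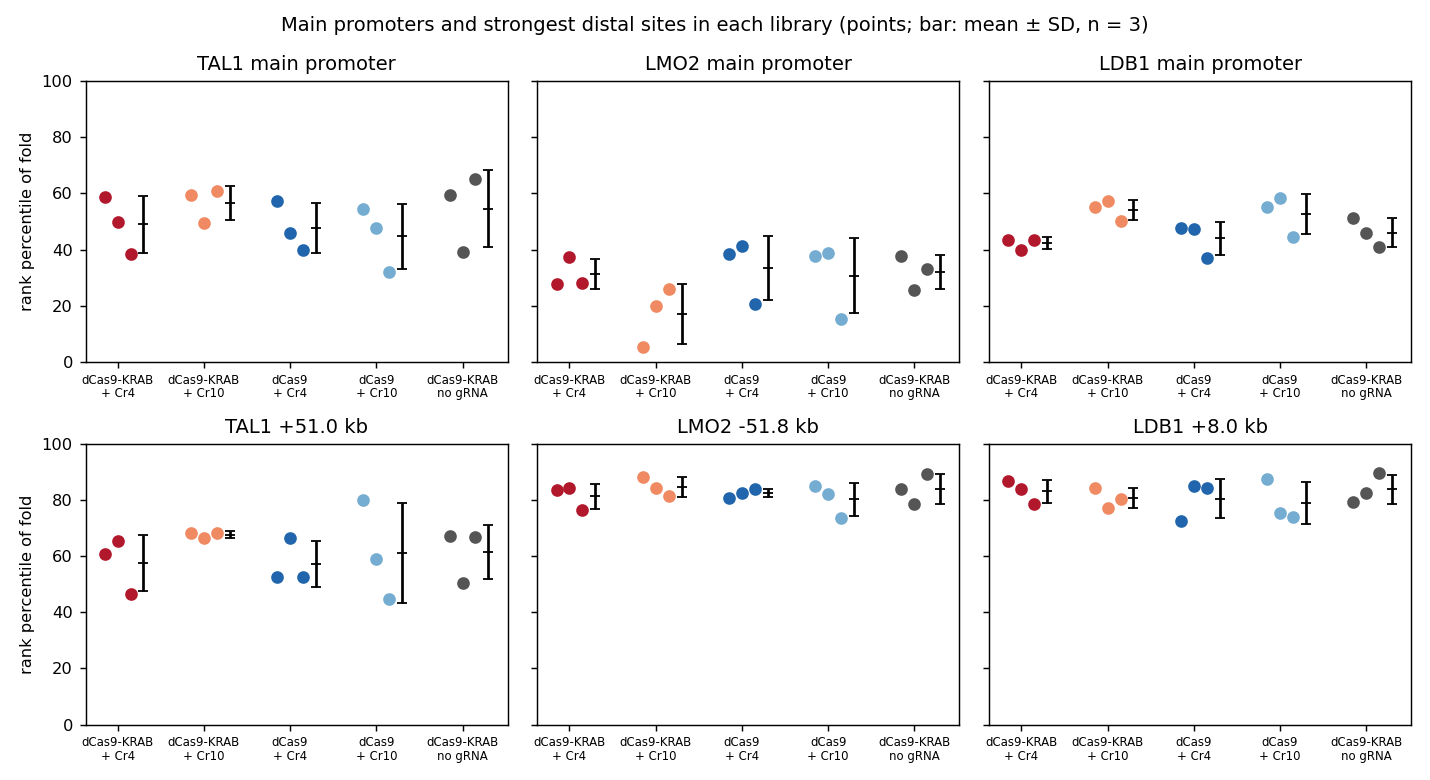
Rank percentile of fold (y axis) of the main promoter (upper row) and of the strongest distal site (lower row) of each gene in every library, with bars for the mean ± SD of 3 libraries. The strongest distal sites of LMO2 and LDB1 stay above 72.4 or at it in all 15 libraries, and the LMO2 promoter has its lowest library, 5.40, in dCas9-KRAB with Cr10.

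The ordering of the main promoters was TAL1, LDB1 and LMO2 by median percentile. TAL1 and LDB1 overlapped over the libraries, with ranges from 31.8 to 65.1 and from 37.1 to 58.2, and LMO2 ran from 5.40 to 41.2. Averages per group at TAL1 were 48.9 ± 10.3 for dCas9-KRAB plus Cr4, 56.6 ± 6.18 for dCas9-KRAB plus Cr10, 47.7 ± 8.85 for dCas9 plus Cr4, 44.7 ± 11.6 for dCas9 plus Cr10, and 54.5 ± 13.7 without a gRNA (SD, n = 3 each). At LMO2 they were 31.2 ± 5.35 for dCas9-KRAB plus Cr4, 17.0 ± 10.5 for dCas9-KRAB plus Cr10, 33.4 ± 11.2 for dCas9 plus Cr4, 30.7 ± 13.3 for dCas9 plus Cr10, and 32.1 ± 6.08 without a gRNA. At LDB1 they were 42.3 ± 2.09 for dCas9-KRAB plus Cr4, 54.1 ± 3.54 for dCas9-KRAB plus Cr10, 44.0 ± 5.90 for dCas9 plus Cr4, 52.6 ± 7.18 for dCas9 plus Cr10, and 46.0 ± 5.14 without a gRNA. The lowest LMO2 mean was that of dCas9-KRAB with Cr10, the group in which the means of TAL1 and LDB1 were highest.

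Whether a KRAB repressor aimed at HS2 altered chromatin elsewhere was the question behind the comparisons. No member changed by the test used. Limma, fitted to the percentiles of all 62858 regions with a peak in at least 3 shortened lists and adjusted by Benjamini and Hochberg, called 0 of 22 members in each of 8 comparisons, and 0.00% of all regions in each. Of these, 4 set a group that had a gRNA against the group that had none, 2 set the KRAB fusion against plain dCas9 for the same gRNA, and 1 set Cr4 against Cr10 within the KRAB fusion. The last, pooled comparison set the 6 libraries that held both dCas9-KRAB and a gRNA against the other 9. At an unadjusted limma p under 0.05 there was 1 of 22 members when dCas9-KRAB with Cr4 was set against no gRNA, where 2.43% of all regions passed, and 1 in dCas9 with Cr4 against no gRNA, where 1.39% did. There were 0 of 22 in dCas9-KRAB with Cr10 (2.81% of all regions) and in dCas9 with Cr10 (2.97%) against no gRNA. The KRAB fusion against plain dCas9 gave 0 under Cr4 (1.25%) and 0 under Cr10 (2.50%). For Cr4 against Cr10 within the KRAB fusion (2.65%) and for the pooled comparison (1.72%) there were 0 as well. With replicate 3 of dCas9 with Cr10 left out, 2 regions were called between the KRAB fusion and plain dCas9 with that gRNA, 0 of them members.

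The pooled comparison gave no called difference at the main promoters. TAL1 averaged 52.8 in the 6 libraries that held both dCas9-KRAB and a gRNA, against 49.0 in the other 9, a difference of 3.81 points (SE 6.01, 2 SE either side from -8.20 to 15.8). Leaving out 1 library gave 1.22 to 6.47 points there. It was 1.22 without replicate 2 of the group without a gRNA, 1.34 and 6.47 without replicates 1 and 3 of dCas9-KRAB with Cr4, 1.66 without replicate 3 of dCas9 with Cr10 and 2.51 without replicate 3 of dCas9 with Cr4. Apart from replicate 1 of dCas9-KRAB with Cr4, these libraries had the longest lists, from 86931 to 94777 peaks. Of those longest lists, all but replicate 3 of dCas9-KRAB with Cr4 were among the other 9. The part of list length in these shifts was not tested. LDB1 averaged 48.2 in those 6 libraries and 47.5 in the other 9, a difference of 0.67 points (SE 4.83, from -8.99 to 10.3), whose sign turned with some settings given in the closing section. LMO2 averaged 24.1 in those 6 libraries and 32.1 in the other 9, a difference of -7.98 points (SE 6.42, from -20.8 to 4.87; limma adjusted p = 1). This was the smallest p among the 22 members in that comparison, and the difference was -5.07 points without replicate 1 of dCas9-KRAB with Cr10. Over the members 12 differences were above 0 and 10 below, with a median of 0.713 points, beside 0.114 over all regions.

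**Figure D3:**
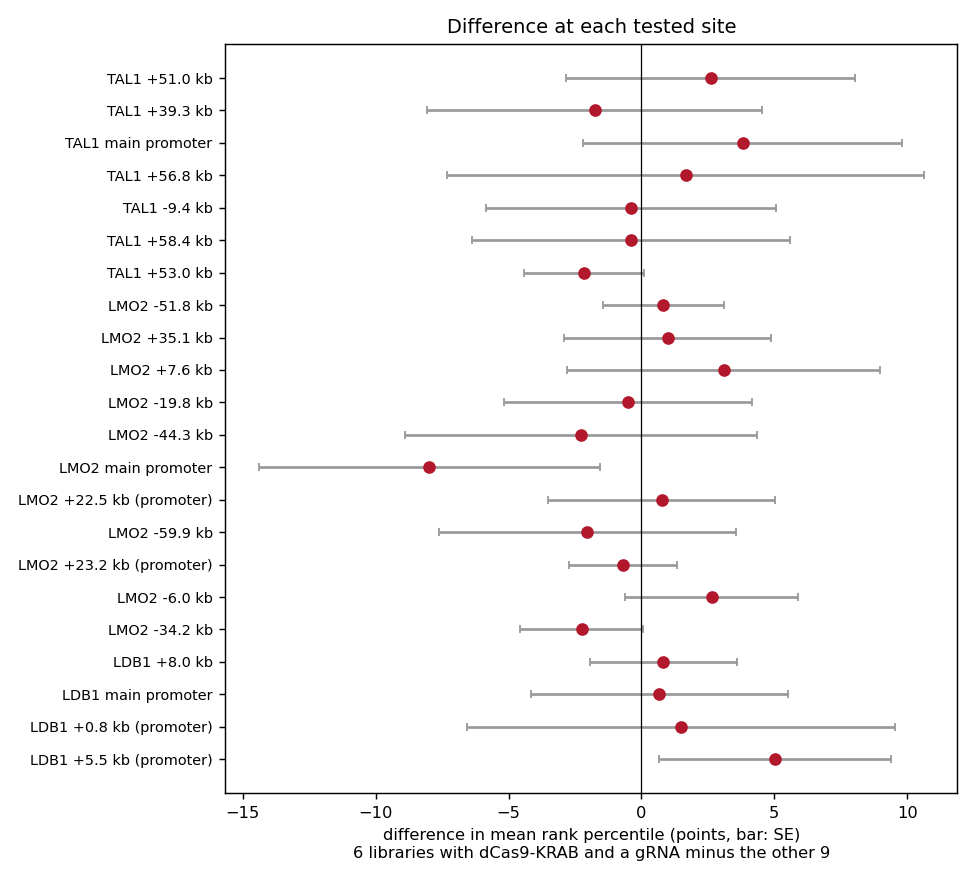
Difference in mean rank percentile (x axis, points, bars: SE from limma) between the 6 libraries that held dCas9-KRAB plus a gRNA and the other 9, for the 22 tested sites, named by gene and distance in kb from the main promoter summit. The farthest from 0 is the LMO2 main promoter at -7.98, and 12 sites lie above 0 and 10 below.

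Against no gRNA, the member with the smallest p in 3 of the 4 comparisons was the TAL1 site 9.44 kb upstream of the promoter summit. It averaged 5.37 for dCas9-KRAB plus Cr4 and 25.1 without a gRNA, a difference of -19.8 points (SE 8.43, limma adjusted p = 1). For dCas9 plus Cr4 it averaged 2.99, a difference of -22.1 points (SE 8.43, limma adjusted p = 1), and for dCas9 plus Cr10 it averaged 8.12, a difference of -17.0 points (SE 8.43, limma adjusted p = 1). These comparisons share the 3 libraries without a gRNA, of which replicate 2 stood at 8.87 and overlapped the range of dCas9-KRAB with Cr4 and that of dCas9 with Cr10. On the summit pileup the same site differed by -0.30 and -0.38 in log2 with Cr4 under dCas9-KRAB and under dCas9 (SE 0.23 each), also against no gRNA. In dCas9-KRAB with Cr10 the smallest p belonged to the LMO2 promoter site 22.5 kb downstream, which averaged 11.8 there and 0 without a gRNA, a difference of 11.8 points (SE 6.62, limma adjusted p = 1).

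Between dCas9-KRAB and dCas9, the smallest p with Cr4 was at the LMO2 site 7.62 kb downstream, which averaged 63.4 under dCas9-KRAB and 47.5 under dCas9, a difference of 15.8 points (SE 9.12, limma adjusted p = 1) that was 7.13 without replicate 1 of dCas9 with Cr4. With Cr10 it was at the TAL1 site 53.0 kb downstream, which averaged 0 under dCas9-KRAB and 6.49 under dCas9, a difference of -6.49 points (SE 3.51, limma adjusted p = 1) that was -3.35 without replicate 2 of dCas9 with Cr10. Between the gRNAs within dCas9-KRAB it was at the LDB1 promoter region 5.49 kb downstream, which averaged 11.1 with Cr4 and 22.5 with Cr10, a difference of -11.4 points (SE 6.77, limma adjusted p = 1) that was -5.82 without replicate 1 of dCas9-KRAB with Cr4. The difference between the KRAB effects with Cr4 and with Cr10 was tested as an interaction. Limma called 0 of 22 members and 0.00% of all regions, with 0 members and 2.18% of all regions at an unadjusted p under 0.05.

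Groups that did not overlap were found at no more than 3 of the 22 tested members in a comparison. The share of all regions with such groups stands in brackets. Against no gRNA there were 0 of 22 for dCas9-KRAB plus Cr4 (5.60% of all regions), and 2 for dCas9-KRAB plus Cr10 (5.40%), the LDB1 promoter region 5.49 kb downstream and the LMO2 promoter site 22.5 kb downstream, both higher. For dCas9 plus Cr4 there were 2 (3.64%), the TAL1 site 9.44 kb upstream, lower, and the LMO2 site 19.8 kb upstream, higher, and for dCas9 plus Cr10 there was 1 (5.07%), the same LMO2 site, also higher. Between dCas9-KRAB and dCas9 there were 0 with Cr4 (3.91%) and 1 with Cr10 (4.67%), the LDB1 promoter region 5.49 kb downstream, higher. Between the gRNAs within dCas9-KRAB there were 3 (5.81%), with the LMO2 main promoter higher and the LDB1 main promoter and the TAL1 site 51.0 kb downstream lower with Cr4. In the pooled comparison there were 0 (0.00795%).

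**Figure D4:**
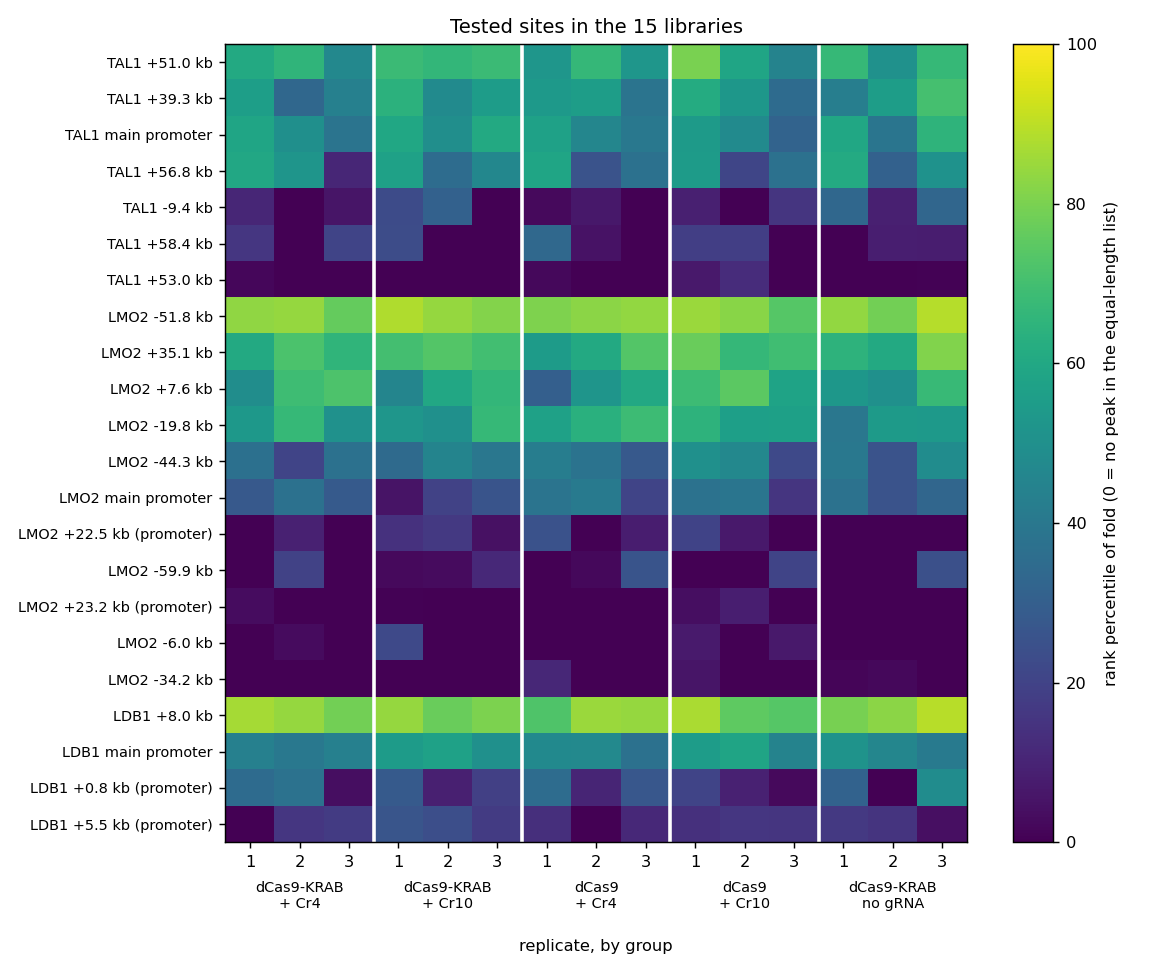
Rank percentile of fold (colour, 0 to 100) of the 22 tested sites (rows, by gene and distance in kb from the main promoter summit) in the 15 libraries (columns, by group and replicate). The rows of the LMO2 site at -51.8 kb and of the LDB1 site at +8.0 kb are high in every library, and the rows near 0 are peaks mostly outside the strongest 53098.

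The summit pileup also gave 0 calls after adjustment. It was scaled as log2(pileup + 1) less each library's median over the 38888 regions in every list, which kept 21 members. Limma called 0 of 21 and 0.00% of all regions in each of the 8 comparisons, and 0 of 21 members had an unadjusted p under 0.05. Of all regions, 0.723% did for dCas9-KRAB plus Cr4 against no gRNA. For dCas9-KRAB plus Cr10 the share was 0.841%, for dCas9 plus Cr4 0.311% and for dCas9 plus Cr10 1.09%, each against no gRNA. Between the KRAB fusion and plain dCas9 it was 0.211% for Cr4 and 1.30% for Cr10. Between the gRNAs within the KRAB fusion it was 0.717%, and in the pooled comparison 0.769%. For the rank as for the pileup, each share lay below the p threshold of 0.05 itself. The test was thus strict on these data, and 0 calls do not show that no site changed. In the pooled comparison the TAL1 promoter differed by 0.03 in log2 (SE 0.09), the LDB1 promoter by 0.07 (SE 0.09) and the LMO2 promoter by -0.13 (SE 0.12).

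No site was gained or lost by a group as a whole. Of the 46 members, 0 had a peak in all deposited lists of one side and none of the other in any of the 8 comparisons. Over all 120992 regions the shares against no gRNA were 0.155% for dCas9-KRAB with Cr4, 0.275% for dCas9-KRAB with Cr10, 0.0479% for dCas9 with Cr4 and 0.0793% for dCas9 with Cr10. They were 0.159% between the KRAB fusion and plain dCas9 for either gRNA, 0.331% between the gRNAs within the fusion, and 0.00% in the pooled comparison. The number of member peaks per library ran from 26 to 41, with a mean of 31.7 ± 3.79 for dCas9-KRAB plus Cr4, 30 ± 3.0 for dCas9-KRAB plus Cr10, 31.3 ± 0.58 for dCas9 plus Cr4, 32.0 ± 7.94 for dCas9 plus Cr10, and 32.3 ± 4.04 without a gRNA (SD, n = 3 each). The lowest and the highest count, 26 and 41, were those of the shortest list (53147 peaks) and the longest (94777), both of dCas9 with Cr10. The part of list length in the count of weak sites was not tested.

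Genes whose products work with this complex had open promoters, though the share of all genes with such peaks was not counted. All 8 that were looked up, the DNA-binding partners GATA1, TCF3, TCF12, LYL1 and RUNX1, the co-repressor CBFA2T3 and the LDB1-stabilising proteins SSBP2 and SSBP3, had a peak within 1000 bases of a start in 15 of 15 deposited lists. By median percentile SSBP2 stood at 79.2, TCF12 at 76.5, TCF3 at 59.9 and LYL1 at 56.6, above the medians of all 3 main promoters of the member genes. SSBP3 at 46.5, RUNX1 at 44.0 and CBFA2T3 at 31.5 lay below the medians of TAL1 and LDB1 and above that of LMO2. GATA1 at 14.8 lay below all 3. RUNX1 had 4 promoter regions, and GATA1, TCF3, CBFA2T3 and SSBP2 had 2 each. The percentile given is that of 1 region per gene.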

How the data were processed

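Nuclei of K562 cells were digested with a nuclease and sequenced; the labels cite a protocol without naming the enzyme. The submitters' processing notes name CASAVA 1.3, BWA, bedtools and the build hg19. Which peak caller and threshold were used is not given in the sources used here, although names of peaks start with macs, the usual MACS prefix. The fold column, a ratio of summit to local background, and the −log10 p-value and −log10 q-value columns were deposited by the authors for each peak. The deposited score equals 10 times the −log10 q-value without decimals in 99.998% of peaks. Totals of sequenced fragments are unknown, so no interval or floor from counting is given.

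Within a list, autosomal and X peaks were put in order of fold, and the top 53098 were kept (56.1% to 100% of a list). A summit pileup k was solved from fold = (k + 1)/(background + 1) and a Poisson p-value, and met −log10 p within 0.01 for 1069283 of 1069283 peaks. Limma 3.58.1 (R 4.3.3) fitted 5 group means with a mean-variance trend, two-sided, with Benjamini-Hochberg adjustment over all regions and a threshold of 0.05; the script was tested on simulated data. Python 3.11.15, numpy 2.4.6, pandas 2.3.3 and scipy 1.17.1 were used. Described one by one are all promoter regions of the 3 genes and up to 6 distal regions per window with a peak in all 15 deposited lists, in order of median percentile. Differences are given for the main promoter of each gene, the one with the highest median percentile, in the pooled comparison and, in every comparison, for the member with the smallest p. The sites, partner and marker genes and tests were chosen with earlier results of these data known. Gene starts on hg19 are recalled. Some marker genes are not reported here. Alternatives covered list length, the percentile, filters, overlap, limma settings, a replicate block and leaving out each library.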

Additional observations from a re-analysis of the deposited data

How the results depend on the processing

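The count of members called stayed at 0 in 200 of 200 recomputed counts over the 8 comparisons. With regions built from summits within 150 bp, limma called 2 regions outside the 3 windows in each of the 4 comparisons against dCas9-KRAB without a gRNA, where the main count was 0; the cause was not tested. Leaving out 1 library gave 0 to 2 regions between dCas9-KRAB and dCas9 with Cr10, the 2 without replicate 3 of dCas9 with Cr10. The 21 members with a peak in every deposited list became 12 in the shortened lists and 11 among the 50000 strongest peaks, as fewer peaks were kept. The pooled difference at the LDB1 main promoter turned to -1.01 points as a percentile of the deposited list, and leaving out 1 library gave -0.68 to 1.64, below 0 without replicate 2 of dCas9-KRAB with Cr10 or replicate 3 of dCas9 with Cr4, of dCas9 with Cr10 or of the group without a gRNA. The other 9 site differences given kept their sign in every alternative in which the site was tested, but not their size. Leaving out 1 library gave 1.22 to 6.47 points at the TAL1 main promoter and -10.5 to -5.07 at that of LMO2 in the pooled comparison. It gave 7.13 to 22.9 at the LMO2 site 7.62 kb downstream, -9.73 to -3.35 at the TAL1 site 53.0 kb downstream and -14.6 to -5.82 at the LDB1 promoter region 5.49 kb downstream. As a percentile of the deposited list, the TAL1 main promoter difference was 1.13.

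With a replicate block 0 regions were called by rank in each comparison and 0 members by pileup. Nothing in the labels says that the numbers pair the samples, and not every pair met the bar of 0.1: 13 of 30 pairs of libraries with the same number in different groups had deviations from the group mean correlated above 0.1 (median 0.0735), and 12 of 60 pairs with different numbers (median -0.105). Of the 15 libraries, 8 were closest to one with their own number. Single sites whose values went with the number were seen, but the share of all regions with such a pattern was not counted. At the TAL1 site 56.8 kb downstream replicate 1 was the highest library in all 5 groups. At the TAL1 site 20.3 kb downstream replicate 1 had no peak in any group while 9 of the other 10 libraries had one. That site was weak, with a median fold of 3.86. The replicate 1 lists held 53147 to 68466 peaks and the others 61074 to 94777, so the ranges overlapped.

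Total depth is unknown and each group has 3 libraries. Even the TAL1 difference of -22.1 points 9.44 kb upstream (SE 8.43) was not called, with a limma adjusted p of 1.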

Other observations

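Over the 15 libraries, the tested regions outside the 3 windows whose percentile was most like the TAL1 main promoter were chr12:120554028-120555452 (Pearson r = 0.953) and chr1:2246197-2246964 (r = 0.940). For the LMO2 main promoter they were chr6:33266354-33267419 (r = 0.916) and chr10:48398443-48398896 (r = 0.898). For the LDB1 main promoter they were chr19:55723858-55724137 (r = 0.859) and chr4:25915554-25916270 (r = 0.856). These are the highest values of a search over the tested regions, and each library's depth is shared by all its points.

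Among the 12 member sites with a peak in all shortened lists, Pearson r over the 15 libraries had a median of 0.22 in 22 pairs within a window (from -0.30 to 0.72) and of 0.18 in 44 pairs from different windows (from -0.45 to 0.76). The highest value, 0.76, joined the TAL1 site 51.0 kb downstream to the LMO2 site 51.8 kb upstream of its promoter. It is the largest of all these pairs, and each library's depth is shared by both sites. Both sites were lowest in replicate 3 of dCas9 with Cr10, the longest list. A link between the sites was not tested.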
